A study of Mus musculus with 6 samples.

Results

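Csf3r, Il1r2, Fpr1, Fpr2, Trem1, Clec4d, Cd177, Hdc, Padi4 and Asprv1 are 10 genes whose transcripts are abundant in neutrophils, and most of them encode receptors on the neutrophil surface or enzymes of its activation. They were taken by gene symbol from the deposited files, where each symbol matched 1 of 25805 listed genes. All 10 passed the filter on low values that 21721 genes passed. The labels place the 6 kidney libraries in 2 groups of 3. The wild-type group (genotype WT) and the group labelled CXCR2 knockout had both undergone ischaemia-reperfusion injury (IRI), a loss and return of blood flow that damages the tubules. No uninjured kidney was analysed here, so every value below is one from injured tissue. Strain, sex, age, time after reperfusion and the part of Cxcr2 that was deleted are absent from the labels used here, and so is any statement that each library came from its own animal. The p-values therefore measure the spread between these libraries, which may be technical.

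Neutrophils leave the blood within hours of an injury and gather in the outer medulla of a reperfused kidney. G-CSF, acting through the receptor that Csf3r encodes, sets how many are made and how long they live, and CXCR2 draws them out of the marrow and towards CXCL chemokines. At the injured site they sense formylated peptides, which are released by bacteria and by broken mitochondria, through the receptors of the Fpr family. They amplify the response through receptors that use ITAM adaptors (Trem1, Clec4d), and can release DNA nets after citrullination of histones by the enzyme that Padi4 encodes.

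Values are normalized counts, that is read counts that the authors divided by 1 size factor per library. The libraries held 15518083 to 20356601 reads. Cxcr2 itself stood at 53.9 ± 36.6 normalized counts in wild type and 63.8 ± 31.2 in the libraries labelled knockout (SD, n = 3 each), so the values do not show the loss of its transcript, and each direction below is one between labels. Knockout-labelled library 1 stood apart from the other 5 libraries. It held transcripts of fat cells (summed level of 12 markers 75780 normalized counts against 828 to 5020.2 elsewhere) and of erythrocytes (13668 against 790.1 to 3002 for 8 markers). The fold changes of the 10 genes and the medians of the gene lists are given with and without it.

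No difference between the groups was detected for any of the 10 genes. With limma, a linear model fitted over all tested genes on log2(normalized count + 1), 0 of 10 had an adjusted p under 0.05 and 0 of 10 an unadjusted p under 0.05, where 0.0046% of all tested genes had the first and 10.1% the second. The adjusted p-values (Benjamini-Hochberg) ran from 0.614 for Asprv1 to 0.984 for Fpr1. Multiplying each value by its library's size factor gave back whole reads, on which count models were run as alternatives. There edgeR called 0 of the 9 genes it kept and DESeq2 0 of the 9 it gave an adjusted p, where the 2 tools called 0.00628% and 1.8% of their genes, and neither gave an unadjusted p under 0.05. In all 10 genes the values of the groups overlapped, whereas they did not overlap in 17.7% of the tested genes. Of the log2 fold changes of the knockout label over wild type, 7 were above 0 and 3 below, with a median of 0.23, beside -0.001 over all tested genes. The standard errors ran from 0.43 to 1.75, with a median of 0.73 against 0.39 over all tested genes, so differences of several fold in either direction lie within the intervals of some of these genes.

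**Figure D1:**
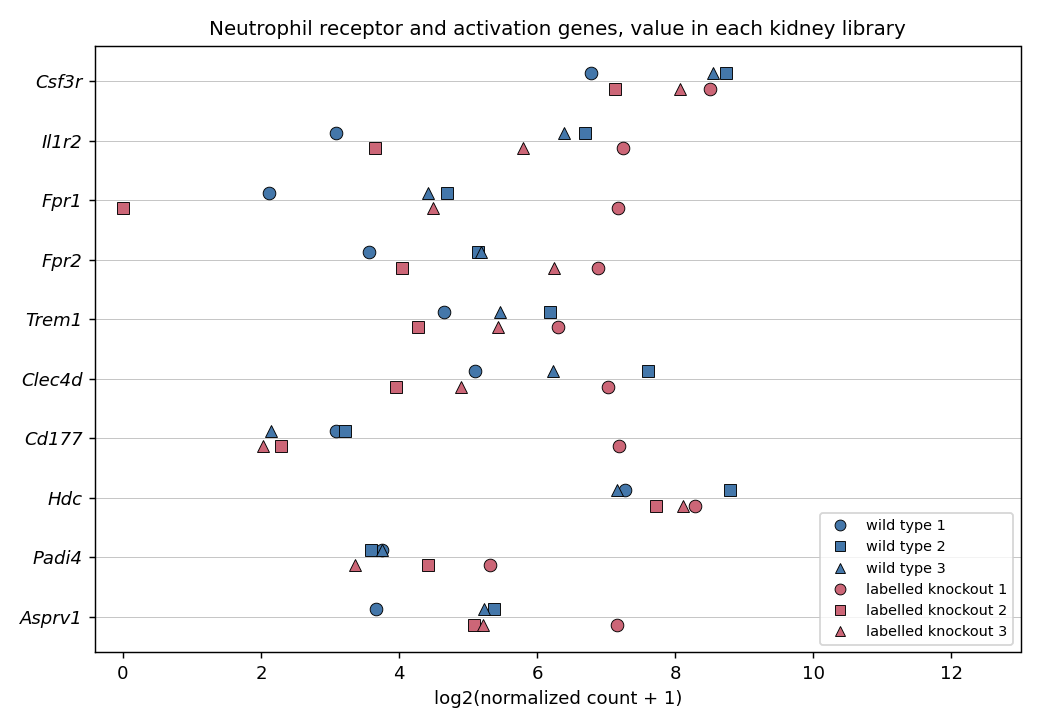
Value of each of the 10 genes in each of the 6 libraries, as log2(normalized count + 1) on the horizontal axis, with wild type in blue above the line and labelled knockout in red below it. Knockout-labelled library 1 (red circle) is the highest library for 7 genes, and wild-type library 1 and knockout-labelled library 2 lie at the low end for most of them.

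What varied was the library. Knockout-labelled library 1 was the highest of the 6 for 7 of the 10 genes, where 28.4% of all tested genes were highest there, and wild-type library 2 was the highest for the other 3. Within the wild-type group, library 1 was the lowest for 7 genes and library 2 the highest for 8. Within the knockout-labelled group, library 1 was the highest for 10 of 10 and library 2 the lowest for 8. The median of the 10 genes, as a log2 difference from the wild-type mean, was -1.08, 0.74 and 0.26 in the 3 wild-type libraries by replicate number, and 1.73, -0.74 and 0.21 in the 3 labelled knockout. The spread inside each group was thus wider than the distance between the groups. In whole kidney, fewer neutrophils and less RNA of a gene per neutrophil cannot be told apart.

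Without knockout-labelled library 1, 4 log2 fold changes were above 0 and 6 below, with a median of -0.50 (-0.005 over all genes tested), and the fitted values of Il1r2, Fpr1 and Cd177 lay on the other side of 0. The adjusted p-values from limma ran from 0.335 to 0.914, and 0 of 10 passed, where 0.0279% of all genes tested did. At an unadjusted p under 0.05 there was 1 gene of 10, Clec4d, beside 13.6% of all genes tested.

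**Figure D2:**
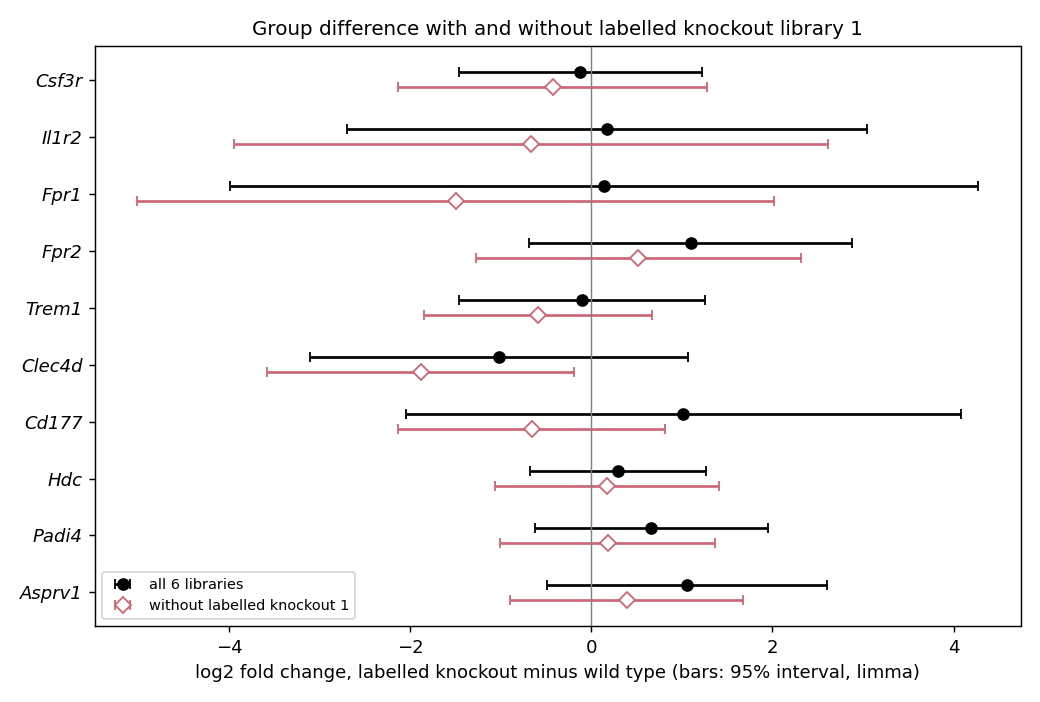
Log2 fold change of the knockout label over wild type with its 95% interval from limma, for all 6 libraries (black circles) and without knockout-labelled library 1 (open red diamonds). All black intervals span 0, and the red points of Il1r2, Fpr1 and Cd177 lie on the other side of 0 from the black ones.

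Csf3r (ENSMUSG00000028859, chromosome 4 from 126024550 to 126044440 in mm10), the receptor for G-CSF, was the most abundant of the 10 per length of gene. In order of replicate number, here and below, it stood at 109, 426 and 373 normalized counts in wild type and at 361, 138 and 268 in the libraries labelled knockout. Wild-type library 1 and knockout-labelled library 2 were low, and the other 4 libraries lay between 268 and 426, so the groups overlapped throughout. The means were 302 ± 170 and 256 ± 112 (SD, n = 3), with a log2 fold change of -0.12 (SE 0.57, 95% interval -1.47 to 1.22, limma adjusted p = 0.957), and -0.42 without knockout-labelled library 1. Unlike most of the 10 genes, Csf3r was not highest in knockout-labelled library 1, where it stood at 0.848 times the level of wild-type library 2. Its longest coding transcript in GENCODE M21 shares stretches of at least 100 bases at 95% identity or more with 31 other genes (the longest 1518 bases at 96.8%), so its count is uncertain.

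Il1r2, the decoy receptor that binds interleukin-1 without passing on a signal (ENSMUSG00000026073, chromosome 1 from 40074079 to 40125231), varied more than Csf3r. Its values were 7.52, 103 and 83.0 in wild type and 150, 11.6 and 54.5 under the knockout label. The lowest library of each group held 9 and 12 reads, and the highest 111 and 135. The highest and lowest libraries differed 19.99-fold, and those of wild type alone 13.7-fold. Limma gave a log2 fold change of 0.17 (SE 1.21, adjusted p = 0.970), and -0.67 without knockout-labelled library 1. An antisense gene, Gm16894, overlaps Il1r2 on the opposite strand and another, Gm37347, on the same strand, and the sources used here do not say whether the counting used strand.

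Fpr1 and Fpr2, the receptors for formylated peptides, are neighbours on chromosome 17 that point away from each other. Fpr1 (ENSMUSG00000045551) runs from 17876471 to 17883940 on the reverse strand and Fpr2 (ENSMUSG00000052270), which also binds annexin A1 and serum amyloid A, from 17887824 to 17893952 on the forward strand. Their starts lie 3884 bases apart. The bases before each start, from RefSeq on GRCm38.p6, are shown because both genes were highest in the same library. Fpr1 is at chr17:17883941-17884189 on the reverse strand and Fpr2 at chr17:17887574-17887823 on the forward strand. Capitals mark matches to GAGGAA, a core that PU.1 and other ETS factors bind, on either strand.
Fpr1: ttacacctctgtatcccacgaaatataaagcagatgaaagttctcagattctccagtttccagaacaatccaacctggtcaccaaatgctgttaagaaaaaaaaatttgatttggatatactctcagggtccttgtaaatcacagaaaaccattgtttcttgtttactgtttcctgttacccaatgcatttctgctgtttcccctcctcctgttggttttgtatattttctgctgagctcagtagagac
Fpr2: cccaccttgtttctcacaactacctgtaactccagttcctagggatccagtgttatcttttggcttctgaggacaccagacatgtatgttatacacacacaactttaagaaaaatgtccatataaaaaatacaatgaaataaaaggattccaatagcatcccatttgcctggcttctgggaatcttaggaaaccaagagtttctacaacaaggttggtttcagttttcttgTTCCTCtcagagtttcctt
Fpr1 has no match in this window and Fpr2 has 1, on the reverse strand.

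Fpr1 had the largest standard error of the 10 genes. Its levels in normalized counts were 3.34, 25.0 and 20.5 in wild type and 143, 0 and 21.6 under the knockout label. Knockout-labelled library 1, with 128 reads, lay 5.71 times above the next library, while library 2 had 0 reads of 17467391, which allows up to 3 reads or 2.90 normalized counts (a limit of counting error only). The 4 other libraries lay between 3.34 and 25.0. The fitted log2 fold change of 0.14 (SE 1.75, adjusted p = 0.984 in limma) was -0.84 with a pseudocount of 0.1 in place of 1. It was -1.50 without knockout-labelled library 1 and 2.08 without library 2.

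Fpr2 stood at 10.9, 34.2 and 35.3 in wild type and 117, 15.5 and 75.1 under the knockout label. Here 2 knockout-labelled libraries, 1 and 3, lay above all 3 wild-type libraries, and library 2 lay inside the wild-type range. In limma a log2 fold change of 1.10 (SE 0.78, 95% interval -0.69 to 2.88) did not pass (adjusted p = 0.651), and was 0.52 without library 1. Fpr3, an 87.4% identical neighbour over 1131 bases, overlaps Fpr2 on the same strand, and another gene, Gm5966, is 95.8% identical over 1037 bases. The count of Fpr2 is therefore uncertain, whereas Fpr1 had no stretch of at least 100 bases at 95% identity with another gene.

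Trem1 (ENSMUSG00000042265, chromosome 17 from 48232768 to 48246924), an immunoglobulin-type receptor that signals through the adaptor DAP12, had nearly equal group means. It stood at 24.2, 72.2 and 43.2 in wild type and 78.0, 18.4 and 42.2 normalized counts under the knockout label, so each group held 1 low, 1 middle and 1 high library. The means were 46.5 ± 24.1 and 46.2 ± 30.0 (SD, n = 3; log2 fold change -0.10, SE 0.60, adjusted p = 0.964 in limma, and -0.58 without knockout-labelled library 1). The interval from -1.46 to 1.26 still allows a difference of more than 2-fold in either direction.

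Clec4d (ENSMUSG00000030144, chromosome 6 from 123262111 to 123275265) encodes MCL, a C-type lectin that signals through the Fc receptor gamma chain and pairs with the Mincle receptor of its neighbour Clec4e. Its values were 33.4, 193 and 73.9 in wild type and 129, 14.5 and 28.8 under the knockout label. Libraries 2 and 3 of the knockout-labelled group lay below all wild-type libraries, and library 1 lay between wild-type libraries 3 and 2. In limma the change was -1.02 on the log2 scale (SE 0.89, adjusted p = 0.723). Without knockout-labelled library 1 it was -1.88 (SE 0.72, 95% interval -3.58 to -0.19), with an unadjusted p of 0.0337 in limma and an adjusted p of 0.335. It stood at -0.35 without knockout-labelled library 2 and -0.37 without wild-type library 2. Clec4e stood at 22.6, 78.6 and 52.3 in wild type and 209, 11.6 and 46.3 under the knockout label, so it was highest in knockout-labelled library 1 where Clec4d was not.

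Cd177 (ENSMUSG00000052212, chromosome 7 from 24743983 to 24760311) encodes a lipid-anchored surface glycoprotein that binds PECAM-1 on endothelium. Most of its reads were in 1 library. Its levels in normalized counts were 7.52, 8.33 and 3.41 in wild type, 145 in knockout-labelled library 1, and 3.87 and 3.09 in knockout-labelled libraries 2 and 3. The reads behind them were 9, 9 and 3, then 130, 4 and 3, so 5 libraries sat close to the limit of what this depth shows and knockout-labelled library 1 lay 17.4 times above the next. With all libraries limma gave 1.02 on the log2 scale (SE 1.32, adjusted p = 0.816) and -0.66 without that library (SE 0.64, limma adjusted p = 0.689). DESeq2 gave 2.97 with no adjusted p. Among the 10 genes, Cd177, Fpr1 and Asprv1 were more than 2-fold higher in knockout-labelled library 1 than in any other library, as were 5.74% of all tested genes. Part of the transcript (303 bases at 96.0% identity) is shared with another gene, Gm4763, and a stretch at 95% identity or more with BC049730, so the count of Cd177 is uncertain.

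The 250 bases before the start of Cd177, shown because it had the widest range between libraries of the 9 members with reads in every library (46.9-fold), lie at chr7:24760312-24760561 on the reverse strand (RefSeq, GRCm38.p6). Capitals again mark GAGGAA.
Cd177: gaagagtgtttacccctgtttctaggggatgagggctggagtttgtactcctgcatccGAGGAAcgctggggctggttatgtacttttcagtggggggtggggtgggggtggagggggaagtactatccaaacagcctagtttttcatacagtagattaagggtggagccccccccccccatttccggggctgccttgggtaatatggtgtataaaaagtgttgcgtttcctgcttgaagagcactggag
In the 250 bases before their RefSeq starts, 5 of the 10 genes (Cd177, Clec4d, Csf3r, Fpr2 and Trem1) had GAGGAA on either strand, as did 23.25% of 32851 such windows. The short site GCAAT of C/EBP factors, which direct granulocyte development, was found on either strand before Csf3r and Il1r2 and in 23.08% of windows. The longer form TTGCNNAA, which can overlap the short one, was before none of the 10 on either strand and in 9.564% of windows. The RefSeq starts differ from the deposited starts for some of the genes. The window of Il1r2 begins at 40085843, inside the deposited gene, and the matches of Csf3r also lie past its deposited start. All these matches are a description of letters and not of binding.

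Hdc, Padi4 and Asprv1 encode enzymes. Hdc (ENSMUSG00000027360, chromosome 2 from 126593667 to 126619299), the enzyme that makes histamine, stood at 154, 442 and 142 in wild type and 312, 210 and 275 under the knockout label. Only wild-type library 2 was outside the range of 142 to 312, and the means were 246 ± 170 and 266 ± 51.5 (SD, n = 3; log2 fold change 0.30, SE 0.43, adjusted p = 0.834 in limma, and 0.17 without knockout-labelled library 1). Its highest and lowest libraries differed 3.11-fold, the smallest such ratio of the 9 members with reads in every library. Mast cells and basophils also make histamine. Their 7 listed markers summed to 637 to 852 normalized counts in wild type and 468 to 904 under the knockout label, and 0 of the 5 tested had an unadjusted p under 0.05 in limma (median log2 fold change 0.21, and 0.33 without knockout-labelled library 1). Gata2 (339 to 609) and Kit (122 to 378), neither of which is particular to mast cells, made up most of that sum. Ms4a2 had 1.14 to 8.91 in every library. Cpa3 stood at 0 in 4 libraries and at 6.68 and 0.968 in knockout-labelled libraries 1 and 2, and Cd200r3 at 0 in 4 and at 9.68 or less. Tpsb2 stood at 0 in 5 libraries, and Cma1 at 0 in 4, both with at most 3.34. The part of mast cells, basophils or any other kidney cells in the level of Hdc was not tested.

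Padi4 (ENSMUSG00000025330, chromosome 4 from 140745865 to 140774236) was the least abundant of the 10 per length, with 9 to 35 reads. Its values in wild type were 12.5, 11.1 and 12.5, the narrowest wild-type range of the 10 genes, and under the knockout label 39.0, 20.3 and 9.26. Libraries 1 and 2 of the knockout-labelled group lay above wild type and library 3 below it. Its difference in limma was 0.66 on the log2 scale (SE 0.57, adjusted p = 0.712) and 0.18 without library 1.

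Asprv1 (ENSMUSG00000033508, chromosome 6 from 86628164 to 86629710) encodes a retroviral-like aspartic protease known from the epidermis, where it cuts filaggrin, and is also transcribed in neutrophils. It stood at 11.7, 40.7 and 36.4 in wild type and 141, 32.9 and 36.0 under the knockout label. Knockout-labelled library 1 lay 3.47 times above the next library, wild-type library 1 was the low one, and the other 4 lay within 32.9 to 40.7. Limma gave a log2 fold change of 1.06 (SE 0.68, adjusted p = 0.614), and 0.39 without knockout-labelled library 1. Of 8 epidermal markers, 2 were highest in that library, and their median log2 fold change was -0.38, and -0.18 without it. Lor, loricrin of the cornified layer, stood there at 76.9 against 20.3 or less elsewhere. The basal keratins Krt14 (678) and Krt5 (1399) were instead highest in wild-type library 1, and stood at 2.23 and 46.8 in knockout-labelled library 1, and Sprr1a was lowest there (610.4 against 914 or more). The part of epidermal cells in the level of Asprv1 was not tested.

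Per kilobase of gene, the 10 genes were ordered by their mean level over the 6 libraries as Csf3r (77.3 normalized counts per kilobase), Clec4d (49.3), Hdc (40.0), Fpr2 (37.0), Il1r2 (35.8), Asprv1 (32.2), Fpr1 (26.8), Trem1 (15.5), Cd177 (10.04) and Padi4 (3.61). No gene exceeded the next in all 6 libraries. Csf3r was above Clec4d in 5 of 6, Asprv1 above Fpr1 in 5 and Trem1 above Cd177 in 5, and for the other pairs the count was 3 or 4. The mix of the 10 transcripts also differed by library. Csf3r made up 25.5% to 34.5% of their summed level per kilobase in 5 libraries and 14.6% in knockout-labelled library 1. Fpr1 made up 15.8% there against 5.86% or less elsewhere, and Cd177 7.47% against 2.39% or less.

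Each gene was then set against other neutrophil transcripts, by subtracting the mean log2 level of S100a8, S100a9, Ly6g, Retnlg and Mmp8 in the same library. S100a8, a calcium-binding protein that fills the neutrophil cytosol, stood at 77.7, 257 and 250 in wild type and 1356, 122 and 258 under the knockout label, so knockout-labelled library 1 was high here as well. Other markers of the reference had few reads. Ly6g had 0 to 19 reads, and in knockout-labelled library 2 Mmp8 had 0, Ly6g 1 and Retnlg 9. The pseudocount of 1 therefore weighs on the differences, most in that library. Csf3r stood 2.52, 2.58 and 2.56 log2 units above these markers in the 3 wild-type libraries (SD 0.028). It stood 3.52 and 2.37 above them in knockout-labelled libraries 2 and 3, and 0.052 in library 1. Csf3r thus varied little against these 5 markers among the wild-type libraries, but not against all 20 neutrophil markers, where it stood at 2.51, 3.08 and 3.49 (SD 0.49). Relative to the 5 markers, knockout-labelled library 1 was the lowest of the 6 for 8 of 10 genes, the exceptions being Fpr1 and Cd177. Relative to all 20 it was the lowest for 4, namely Csf3r, Trem1, Clec4d and Hdc, so the count depends on which markers are used. The mean log2 level of the 5 markers was 8.45 in that library against 3.61 to 6.16 elsewhere. A gene that rose there by less than these markers thus falls low by this measure. The share of all tested genes lowest there by it was not taken, so the counts are no result about the 10 genes.

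**Figure D3:**
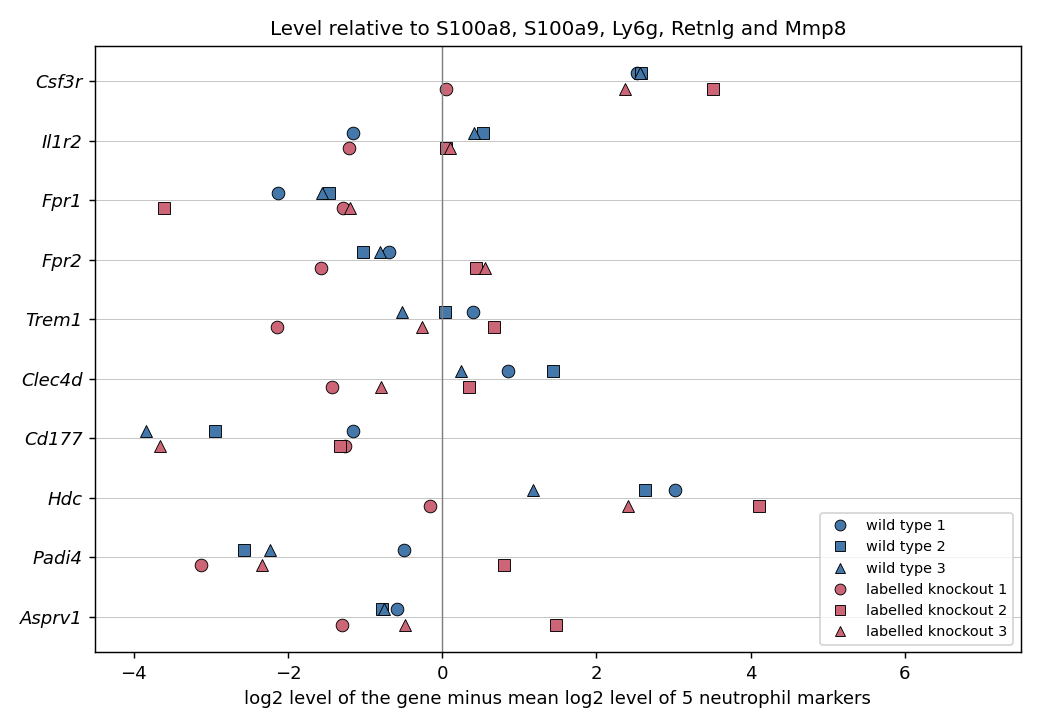
Log2 level of each gene minus the mean log2 level of 5 neutrophil markers (S100a8, S100a9, Ly6g, Retnlg, Mmp8) in the same library, with wild type in blue and labelled knockout in red. The 3 wild-type points of Csf3r coincide near 2.55, and knockout-labelled library 1 (red circle) is the lowest point for 8 genes.

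Against the 5 markers the groups overlapped for all 10 genes. The largest was that of Clec4d, at 0.85 ± 0.60 in wild type and -0.62 ± 0.90 under the knockout label (SD, n = 3, two-sided exact permutation p = 0.2). With 1 library omitted in turn it lay between -1.96 and -1.07. The next were Fpr2 (higher by 0.64, exact permutation p = 0.4, from 0.27 without knockout-labelled library 3 to 1.33 without library 1) and Asprv1 (higher by 0.61, exact permutation p = 0.7). With 3 libraries a group this test cannot go below 0.1, and the p-values are not adjusted over the 10 genes. With all 20 neutrophil markers as the reference, the groups did not overlap for 2 genes, Clec4d (-1.55) and Trem1 (-0.63), which reached that smallest exact permutation p of 0.1. Those 20 include Cxcr2 itself and Lcn2, which injured tubules also make. Of the 20, 7 stood at 0 in at least 1 library. The share of all tested genes whose groups do not overlap against this reference was not taken, so the 2 cannot be set against a background.

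The other genes of these pathways were taken from lists that hold receptors, ligands, adaptors and partners of the 10. In none of the 16 lists did a gene pass limma over all tested genes, the smallest adjusted p being 0.373. In the G-CSF receptor list, 13 of 16 tested genes had a log2 fold change above 0 (median 0.35, and 0.15 without knockout-labelled library 1) and 2 an unadjusted p under 0.05, which 10.1% of all tested genes had. Cebpd, a C/EBP factor induced in acute inflammation, had the smallest p, at 646 ± 57.4 and 1164 ± 328 (log2 fold change 0.81, limma adjusted p = 0.391, and 0.69 without knockout-labelled library 1). Stat3, which carries the G-CSF signal to the nucleus, followed (0.61, limma adjusted p = 0.438, and 0.40 without that library), then Cebpb (0.82, and 0.44 without it).

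In the interleukin-1 list, 10 of 14 genes had a log2 fold change above 0 (median 0.37, and 0.16 without knockout-labelled library 1), 1 with an unadjusted p under 0.05, and Irak2, Traf6 and Il1rl1 had the smallest p (0.58, 0.44 and 1.53, limma adjusted p of 0.484 or more, and 0.44, 0.27 and 1.23 without that library). In the list of formyl peptide receptor ligands and signalling genes, 5 of 13 were above 0 (median -0.033, and -0.25 without knockout-labelled library 1). Gng2, a G protein gamma subunit, was lower in every knockout-labelled library (log2 fold change -1.36, limma adjusted p = 0.391, and -1.66 without library 1), and Anxa1, a ligand of Fpr2, stood at 1042 ± 296 and 609 ± 501 (-1.03, and -1.66 without it). Saa3, a serum amyloid A gene, stood at 30.9 to 41.6 in wild type and at 7510, 38.7 and 277 under the knockout label. The NADPH oxidase list, the enzyme complex of the respiratory burst, had 6 of 7 above 0 (median 0.36, and 0.066 without knockout-labelled library 1), with Cybb, its catalytic subunit, at 1.26 (limma adjusted p = 0.493, and 0.76 without that library).

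Among TREM and lectin receptors and their adaptors, 12 of 19 genes were above 0 (median 0.13, and -0.10 without knockout-labelled library 1). The 3 of smallest p were Trem2, a macrophage relative of Trem1 (log2 fold change -1.96, with values of 60.3 to 126 in wild type and 4.46, 39.7 and 36.0 under the knockout label, and -1.01 without knockout-labelled library 1), Tyrobp, which encodes DAP12 (-0.76, and -0.81 without it), and Pglyrp1, a peptidoglycan-binding protein that activates TREM-1 (1.02, and 0.81 without it). The groups did not overlap for 4 of the 19, these 3 among them, beside 17.7% of all tested genes, and none passed (limma adjusted p of 0.465 or more). In the list of Cd177 partners, 4 of 8 genes were above 0 (median 0.16, and -0.12 without knockout-labelled library 1), and Prtn3, proteinase 3, had a log2 fold change of 2.02, from 6.00 ± 2.90 to 27.4 ± 12.9 normalized counts (limma adjusted p = 0.383), and 1.67 without knockout-labelled library 1. The groups did not overlap for 2 of the 8, beside 17.7% of all tested genes. Of these Prtn3 was higher under the knockout label and Plaur lower. Plaur had a log2 fold change of -0.37 (limma adjusted p = 0.510), and -0.37 without knockout-labelled library 1. Prtn3 is also in the list of deiminases and net genes, where 6 of 9 genes were above 0 (median 0.45, and 0.25 without that library). In the histamine list 4 of 8 were above 0 (median -0.067, and -0.23 without that library) and 0 had an unadjusted p under 0.05, the smallest limma adjusted p being 0.620 (Aoc1, which breaks histamine down).

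**Figure D4:**
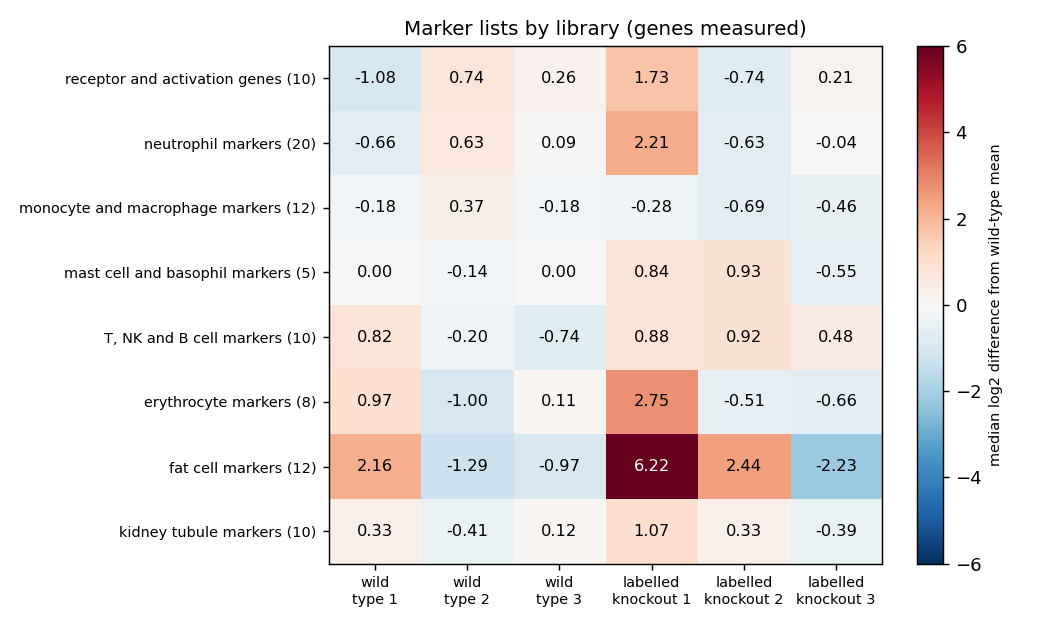
Median log2 difference from the wild-type mean over the genes of each list, by library, with the number of genes measured in brackets. The 10 receptor and activation genes follow the neutrophil markers across the libraries, and in knockout-labelled library 1 the neutrophil, erythrocyte and fat cell lists are all high. The kidney tubule list is also highest there.

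The same measure was taken for markers of neutrophils and of other cells. By median log2 difference from the wild-type mean, the 20 neutrophil markers stood at -0.66, 0.63 and 0.088 in wild type and 2.21, -0.63 and -0.039 under the knockout label, close to the course of the 10 genes. Their median log2 fold change was 0.56, and -0.20 without knockout-labelled library 1. In limma 0 of these 20 passed, and 2 had an unadjusted p under 0.05 (10.1% over all tested genes), both lower in the libraries labelled knockout. Those were Lcn2, lipocalin 2, which injured tubules also make (20301 ± 6744 and 7676 ± 3461 normalized counts), and G0s2, an inhibitor of fat breakdown also found in fat cells (1606 ± 805 and 485 ± 233). DESeq2, which called 1.8% of its genes, called both (adjusted p = 0.0220 and 0.0115). The list summed to 16532 to 30960 in wild type and 8978 to 12944 under the knockout label. Lcn2 made up most of that sum in every library but knockout-labelled library 1. Lcn2 stood there at 4180 of a summed 10895, its lowest level, against 7747 or more elsewhere. Other granule proteins of the list were highest in that library. Ngp stood there at 321 against 6.17 or less elsewhere, and Ltf at 141 against 11.1 or less. Camp stood at 26.7 against 3.09 or less, Elane at 10.02 against 0 and Mpo at 6.68 against 2.90 or less. Prtn3, a granule protease from another list, stood at 42.3, 19.4 and 20.6 in the 3 libraries labelled knockout. The 12 monocyte and macrophage markers stood at -0.18, 0.37 and -0.18 in wild type and -0.28, -0.69 and -0.46 under the knockout label, with summed levels of 4131 to 6051 and 3295 to 5416. Their median log2 fold change was -0.43 (-0.65 without knockout-labelled library 1), 5 of 12 had an unadjusted p under 0.05 beside 10.1% of all tested genes, 1 of them higher, and Mrc1 (-1.65, limma adjusted p = 0.373) led, the only one of the 12 that DESeq2 called (adjusted p = 0.0143, where it called 1.8% of its genes). By this median, in knockout-labelled library 1 the macrophage list lay below the wild-type mean and the neutrophil list above it. The summed levels did not show that contrast. The macrophage list summed there to 5416, within the wild-type range, and the neutrophil list to 10895, below it. Of the 12 macrophage markers 3 were highest in that library, Csf1r among them (1509 against 927.1 or less), as were 28.4% of all tested genes.

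By the same measure the fat cell list was at 6.22 in knockout-labelled library 1, at 2.16 in wild-type library 1, where the 10 genes were low, and at 2.44 in knockout-labelled library 2, where they were low too. Its median log2 fold change was 1.99, and 0.18 without knockout-labelled library 1. The erythrocyte list stood at 2.75 in knockout-labelled library 1 and at 0.97 or lower elsewhere (median log2 fold change 0.59, and -0.59 without that library). The T, NK and B cell markers summed to 25.0 to 78.6 in wild type and 52.5 to 116 under the knockout label (median log2 fold change 0.67, and 0.72 without knockout-labelled library 1). Tubule markers such as Umod (15277 to 58056) were present in all libraries, with a median log2 fold change of -0.079 over the 10 of the list (-0.26 without that library). The tubule list too was highest in knockout-labelled library 1, at 1.07 against 0.33 or lower elsewhere. In that library 7 of its 10 markers were highest, as were 28.4% of all tested genes. The part that fat tissue, blood or the number of neutrophils has in the values of knockout-labelled library 1 was not tested.

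The 10 genes differed in how closely they followed 1 course over the libraries. As a description over 6 libraries of which 1 stands apart, the Pearson correlation of each gene with the mean standardized level of the other 9 was 0.93 for Trem1, 0.90 for Il1r2, 0.89 for Fpr1, 0.87 for Asprv1, 0.83 for Fpr2, 0.80 for Csf3r and 0.76 for Clec4d. It was lower for Cd177 (0.68), Hdc (0.58) and Padi4 (0.37). Over the 5 libraries without knockout-labelled library 1, it was 0.95 for Csf3r, Il1r2 and Trem1, 0.024 for Cd177 and -0.65 for Padi4. Both Cd177 and Padi4 were highest in knockout-labelled library 1. Outside it Cd177 had 3 to 9 reads and Padi4 9 to 21. With so few reads, whether either shares the course of the others there cannot be told.

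Of 13878 other named genes with a mean of at least 10 normalized counts, the one most like the mean profile of the 10 was Mmp9, the gelatinase of neutrophil granules (Pearson r = 0.995, and 0.999 without knockout-labelled library 1). Its levels in normalized counts were 51.8, 193 and 109 in wild type and 395, 60.0 and 97.8 under the knockout label. Dennd1c (0.990), Myo9b (0.988), Adssl1 (0.982), Mapk6 (0.982) and Pfkp (0.982) came next. These are descriptions over 6 libraries that share 1 high library.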

How the data were processed

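RNA was sequenced from 6 kidney libraries, and groups and replicate numbers came from the titles. The deposited unit is a signal per gene, namely read counts scaled by the authors with a size factor for each library. The values show this, since multiplying them by that factor gave whole reads for 100% (within 0.001), and totals of 15518083 to 20356601. The build was mm10, per the submitters' processing notes. The aligner, counter and library kit were not given in the sources used here. The members and the gene lists were chosen with earlier results of these data known.

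Main test: limma 3.58.1 (trend, robust) after log2(value + 1), for the 21721 genes averaging at least 1, Benjamini-Hochberg adjustment over all of them, threshold 0.05. Fold changes on this scale understate the change of low genes. Alternatives were TMM scaling, other pseudocounts and filters, a replicate block, each library left out, and edgeR 4.0.16 and DESeq2 1.42.0 on the recovered reads (R 4.3.3). The limma, edgeR and DESeq2 fits were first tested on simulated data. There the changes were placed only in genes more abundant than Cd177 or Padi4, and no library stood apart. The simulation therefore does not cover low genes or a library like knockout-labelled library 1. Named genes were drawn from the 10 members, Cxcr2, the 3 of smallest p in each list, the 3 most abundant of each other cell type's list, and the 6 most like the members. Not all list genes that met these rules are printed. Cyba, Rac2, Ly6c2, Ddc, Hnmt, Padi1, Ms4a7, C1qa, C1qb and Alas2 are among those left out. Clec4e, S100a8, Ltf, Camp, Elane, Mpo, Tpsb2, Cma1 and Cd200r3 were named after their values were seen. Genes of the lists not listed in the files used were not analysed here. Overlaps and shared sequence came from GENCODE M21, in which all 10 genes have the deposited start and end.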

Additional observations from a re-analysis of the deposited data

How the results depend on the processing

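Under the 14 alternatives none of the 10 genes passed the threshold, and the log2 fold changes of Fpr2, Asprv1, Hdc, Padi4 and Clec4d kept their sign. Over all genes the count past the threshold was 1 with limma, 4 with TMM scaling, 5 with a pseudocount of 5, 5 without the filter, 310 with DESeq2, and from 1 to 6 with 1 library left out (6 without knockout-labelled library 1, 3 without library 3). It was 16 with the replicate block. The labels do not say whether same-numbered libraries were paired. The correlations of their deviations were 0.067, -0.15 and 0.12, which cannot settle it. No member's call changed with the block. Leaving out 1 library in turn moved the median of the 10 genes from -0.50 to 0.88. The log2 fold change ran from -0.74 to 0.26 for Csf3r, -0.98 to 1.13 for Il1r2, -1.50 to 2.08 for Fpr1, -0.58 to 0.43 for Trem1 and -0.66 to 1.92 for Cd177, and that of Fpr1 was -0.84 with a pseudocount of 0.1. Relative to the 5 neutrophil markers the difference ran from -1.34 to 0.39 for Csf3r, -0.82 to 0.15 for Il1r2, -0.73 to 0.48 for Fpr1, -1.18 to 0.23 for Trem1, -0.031 to 1.36 for Cd177, -1.15 to 0.99 for Hdc, -0.97 to 1.00 for Padi4, -0.18 to 1.20 for Asprv1, 0.27 to 1.33 for Fpr2 and -1.96 to -1.07 for Clec4d. The cause was not tested. Depth limits low counts: Cd177 had 3 to 9 reads in 5 of 6 libraries, Fpr1 0 to 27 in 5 and Padi4 9 to 35 in all 6.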
